A study of Mus musculus with 2 samples.

Results

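The tumour necrosis factor (TNF) superfamily, its receptors and the TRAF adaptors were examined in mouse preglomerular arterioles, the small arteries that feed the glomeruli and carry the renin-producing cells of the kidney. Members were chosen by gene symbol alone, as Tnf, any Tnfsf, Tnfrsf, Tnfaip or Traf symbol with a number, and Lta, Ltb, Ltbr, Cd40 and Fas. This gave 54 of 22314 named genes, and each of the 54 was read by a single probe set. The RBP-J cKO mice carried cre at 1 Ren1d allele (Ren1d+/cre) beside RBP-J flox/flox and R26R ECFP, so that RBP-J, the DNA-binding factor of Notch signalling, is removed from cells that have expressed renin. The wild type mice were Ren1d+/+, without cre, and shared the floxed RBP-J gene and R26R ECFP with the cKO mice. All mice were 3 months old and of mixed 129Sv and C57Bl6 strain. Arteriole RNA of 4 male cKO mice was pooled on 1 array, and that of 3 wild type mice, 2 males and 1 female, on the other.

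Ligands of the TNF superfamily are made mostly as membrane proteins that form trimers, and many can be shed. Their receptors either carry a death domain, through which they can start caspase-dependent cell death, or recruit TRAF proteins directly, which lead to NF-kB and MAP kinase signalling. Signal strength is held in check by decoy receptors and by NF-kB-induced inhibitors such as the protein encoded by Tnfaip3. In kidney, TNF signalling is known for its part in glomerular and tubular inflammation.

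Levels are the deposited RMA values on the log2 scale, and differences are cKO minus wild type on that scale. With 1 array of pooled RNA per group there was no replicate, so there is no p-value, standard deviation or genotype test, and precision is limited by having 2 arrays in all. The animals' spread is hidden by the pools, and the sexes of the pools cannot be told apart from genotype. As a measure of error, each difference is set beside the authors' deposited table, which gives a fold of the dChip intensities of the same arrays with a lower and an upper bound. In that table the bounds lay on one side of 1 for 32.2% of all named genes upward and 36.9% downward, so a bound clear of 1 was common and covers probe error of these arrays alone. In bulk RNA, fewer cells of a type and less RNA per cell cannot be told apart.

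The medians of the arrays were 7.21 for cKO and 7.25 for wild type over 34760 probe sets. Rbpj itself read 9.02 in cKO and 9.0 in wild type, a value that does not check the labels because deletion concerns renin lineage cells and nothing in the files places the probes inside or outside the deleted exons. Ren1 read 10.19 in cKO and 10.77 in wild type. Of 8 smooth muscle and renin cell markers, 7 had a mean level at or above 7.58, the median over all named genes. The same held for 9 of 10 endothelial markers, which can come from the arteriole wall itself. It also held for 8 of 8 proximal tubule and 6 of 6 podocyte markers, so the preparations likely held other kidney cells besides that wall. A level above the median is not a detection call.

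Counted over all levels, the TNF family was balanced between the pools, with a few members apart. Of the 54 members 26 were higher (48.1%) and 28 lower in cKO, against 48.4% higher over all named genes. The median difference was -0.0025, against -0.0073 over all named genes. The 30 members with a mean level at or above the median of all named genes leaned lower. Of these 11 were higher (36.7%) and 19 lower, against 53.9% higher among named genes at that level. Their median difference was -0.03, against 0.02. No member reached a 2-fold difference, where 0.556% of all named genes were higher and 0.202% lower. At 1.5-fold, 4 members were higher (7.41%), against 2.81% of all named genes, and 2 were lower (3.70%), against 1.49%. At the shares of all named genes, 1.52 higher and 0.803 lower members would be counted. The family was chosen with earlier results of these data known, so these shares and those of its groups below are a description. The higher members were Tnf, Tnfaip3, Tnfsf13b and Traf1, and the lower ones Fas and Tnfrsf26. In both processings at once 3 members were at least 1.5-fold higher (2.2% of all named genes) and 1 at least 1.5-fold lower (0.869% of all named genes). Another 4 members differed by 1.3-fold or more without reaching 1.5-fold, Tnfrsf1b and Traf4 higher and Tnfsf10 and Lta lower, and 44 differed by less.

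**Figure D1:**
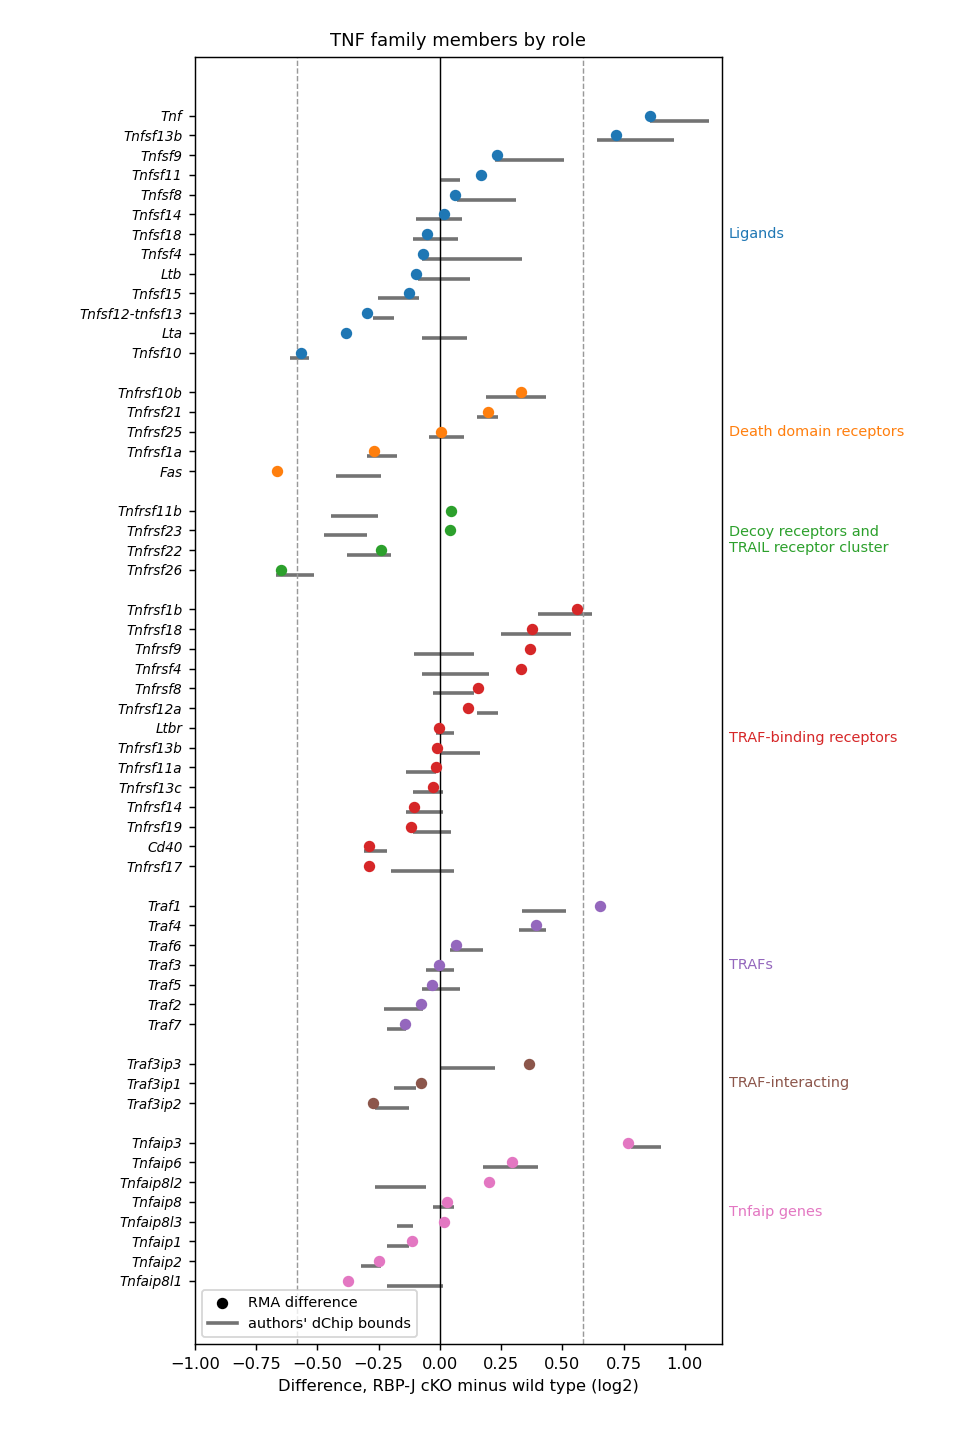
Difference of each of the 54 TNF family members (horizontal axis, cKO minus wild type, log2), grouped by role. Points are RMA differences of 1 array per group, grey bars span the lower and upper bounds of the authors' dChip fold, and dashed lines mark 1.5-fold. Tnf, Tnfsf13b, Traf1 and Tnfaip3 lie right of the upper line, Fas and Tnfrsf26 left of the lower one, and among these 6 the bars of Fas and Traf1 end short of their RMA points while that of Tnfaip3 lies just beyond its own.

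The proximal promoters of Tnf, Tnfaip3 and Tnfsf13b, the members with the largest positive differences, and of Fas, with the largest negative one, are shown because the factor deleted here acts on DNA. Each line gives the 250 bases before the most upstream start listed by RefSeq (build GRCm38.p6), from 5′ to 3′ on the strand of the gene. They are chr17:35202008-35202257 (minus strand) for Tnf, chr10:19015411-19015660 (minus strand) for Tnfaip3, chr8:10006217-10006466 (plus strand) for Tnfsf13b and chr19:34290409-34290658 (plus strand) for Fas. Capitals mark matches, on either strand, to TGGGAA, the core that RBP-J binds, or to the NF-kB pattern GGGNNTTCC, either as written or with 1 more T.
Tnf: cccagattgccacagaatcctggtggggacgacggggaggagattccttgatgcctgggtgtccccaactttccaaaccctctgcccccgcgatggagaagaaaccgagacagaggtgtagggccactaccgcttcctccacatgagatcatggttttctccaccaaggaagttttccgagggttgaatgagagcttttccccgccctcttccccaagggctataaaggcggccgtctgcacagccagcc
Tnfaip3: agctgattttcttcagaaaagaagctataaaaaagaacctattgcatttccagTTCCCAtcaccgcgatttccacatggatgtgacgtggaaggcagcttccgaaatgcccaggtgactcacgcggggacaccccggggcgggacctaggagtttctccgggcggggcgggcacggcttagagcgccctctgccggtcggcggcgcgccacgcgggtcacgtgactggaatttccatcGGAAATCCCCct
Tnfsf13b: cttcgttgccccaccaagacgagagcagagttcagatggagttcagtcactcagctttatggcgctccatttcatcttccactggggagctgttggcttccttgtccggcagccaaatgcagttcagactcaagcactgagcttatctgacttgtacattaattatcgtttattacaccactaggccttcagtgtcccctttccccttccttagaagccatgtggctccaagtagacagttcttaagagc
Fas: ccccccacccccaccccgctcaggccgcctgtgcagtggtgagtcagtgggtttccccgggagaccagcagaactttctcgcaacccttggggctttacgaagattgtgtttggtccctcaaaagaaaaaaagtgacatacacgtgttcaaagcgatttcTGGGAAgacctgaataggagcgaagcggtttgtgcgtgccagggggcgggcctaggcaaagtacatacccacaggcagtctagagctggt
Tnfaip3 held an RBP-J core on the strand opposite to that shown, 197 to 192 bases before the start. On that opposite strand it also held an overlapping match to both forms of the NF-kB pattern, 12 to 3 bases before the start. Fas held an RBP-J core 90 to 85 bases before its start, and the windows of Tnf and Tnfsf13b held none of these letters. Promoters were listed for 45 of the 54 members, over all their starts. TGGGAA was found in 11 of the 45 (24.4%), against 24.1% of 27025 genes with a listed promoter. The longer NF-kB form was found in 5 of the 45 (11.1%), Ltb, Tnfaip3, Tnfrsf25, Tnfrsf9 and Traf3, against 1.65% of all genes. The shorter one was found in 4 of the 45 (8.89%), Tnfaip3, Tnfrsf13b, Tnfrsf9 and Traf3, against 5.61%. Of these carriers Tnfaip3 alone differed by 1.5-fold. A match is a description of letters and not a shown site, and the counts of the 2 NF-kB forms overlap.

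Among 13 ligands, 2 (15.4%) were at least 1.5-fold higher in cKO, against 2.81% of all named genes, and none was lower, against 1.49%. By any amount 6 were higher and 7 lower by RMA, and 8 higher and 5 lower in the dChip values. Tnf, the founding cytokine of the family and a product chiefly of macrophages, read 7.98 on the cKO array and 7.12 on the wild type array. Its difference was 0.86, a 1.81-fold higher level in cKO, and 210 named genes had a larger one. In the authors' deposited table its fold was 1.97, with bounds of 1.81 and 2.14. The wild type level lay under 7.58, the median of all named genes, so the size of the difference is uncertain. Tnfsf13b, which encodes the B cell survival factor BAFF made by myeloid and stromal cells, read 8.41 in cKO and 7.69 in wild type. It was 1.65-fold higher, and the authors' deposited table gives a fold of 1.73 with bounds of 1.56 and 1.94. Both ligands were thus apart in the same direction in each processing.

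Tnfsf10, encoding the death ligand TRAIL, was the ligand with the most negative difference. It read 9.87 in cKO and 10.44 in wild type, 1.48-fold lower and just short of 1.5-fold. The authors' deposited table gives -1.49, with bounds of -1.45 and -1.53, where a minus sign means lower in cKO. Tnfsf12-tnfsf13, the joined transcript of TWEAK and APRIL, read 8.57 in cKO and 8.87 in wild type. Its difference of -0.30 stood beside -0.23 in the dChip values.

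The other ligand genes were closer to equal or dim. The lymphotoxin genes Lta and Ltb, which are direct neighbours of Tnf on the chromosome, differed by -0.38 and -0.10. Their dChip differences were 0.01 and 0.02, so the large positive difference of Tnf was not shared by its neighbours in either processing. Lta read 6.11 in cKO and 6.49 in wild type, and Ltb read 7.20 in cKO and 7.30 in wild type. Tnfsf9, the ligand of the costimulatory receptor encoded by Tnfrsf9, differed by 0.23, and Tnfsf11, encoding the osteoclast factor RANKL, by 0.17. Tnfsf8 and Tnfsf14 differed by 0.06 and 0.02, and Tnfsf15, Tnfsf4 and Tnfsf18 by -0.13, -0.07 and -0.05. The sign turned in the dChip values for Tnfsf4, at 0.13, and for Tnfsf14, at -0.01. Of the 13 ligands 8 had a mean level under the median of all named genes.

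**Figure D2:**
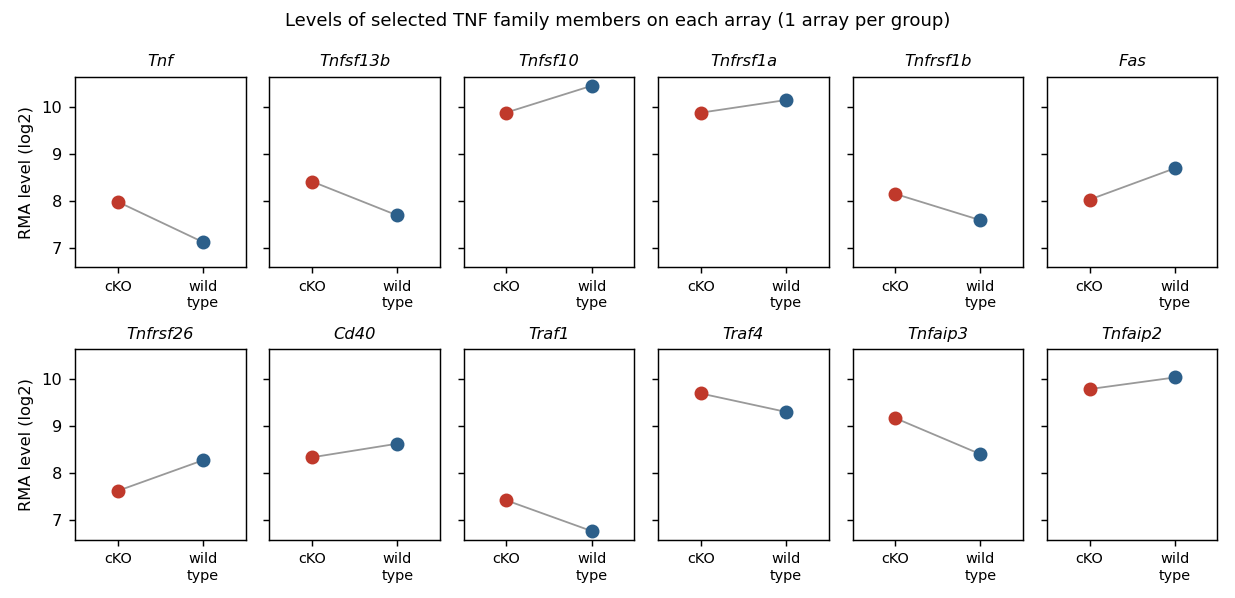
RMA levels (vertical axis, log2) of 12 members on the cKO array (left, red) and the wild type array (right, blue), 1 array per group. Lines join the values of a probe set, and only the pair within a panel is comparable. Tnf, Tnfsf13b, Tnfrsf1b, Traf1, Traf4 and Tnfaip3 are higher in cKO, and the other 6 lower.

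The receptors of TNF differed in opposite directions. Tnfrsf1b, which encodes the TRAF-binding receptor of leukocytes and endothelium, read 8.14 in cKO and 7.58 in wild type. It was 1.47-fold higher, just under 1.5-fold, and the authors' deposited table gives a fold of 1.42 with bounds of 1.32 and 1.54. Tnfrsf1a, the broadly expressed death domain receptor, read 9.87 in cKO and 10.14 in wild type, a difference of -0.27. The authors' deposited table gives -1.18 for it, with bounds of -1.13 and -1.23. Both processings therefore put the pair on opposite sides of zero, at 0.51 and -0.23 in the dChip values.

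Receptors with a death domain were mixed, with 3 of 5 higher and 2 lower. Fas, the death receptor that FasL engages, read 8.02 in cKO and 8.69 in wild type. It was 1.59-fold lower by RMA, and 205 named genes had a lower difference. In the authors' deposited table its fold was -1.25, with bounds of -1.18 and -1.34, so the direction held and the 1.5-fold size did not. Tnfrsf10b, the mouse death receptor for TRAIL, read 8.36 in cKO and 8.03 in wild type, a difference of 0.33 that was 0.31 in the dChip values. Tnfrsf21, encoding death receptor DR6, read 10.86 in cKO and 10.67 in wild type, a difference of 0.20 in both processings. Tnfrsf25 differed by 0.0038, with dChip bounds on both sides of 1.

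A cluster of TRAIL receptor-like genes and the secreted decoy osteoprotegerin were lower or equal. Tnfrsf26, which lies next to Tnfrsf22 and Tnfrsf23 in the mouse genome, read 7.62 in cKO and 8.27 in wild type. It was 1.57-fold lower, and the authors' deposited table gives -1.51 with bounds of -1.43 and -1.59. Tnfrsf22 and Tnfrsf23, which encode decoy receptors for TRAIL in mouse, differed by -0.24 and 0.04 by RMA and by -0.29 and -0.38 in the dChip values. These neighbouring genes are close relatives in sequence, so their probe sets may share signal and the values are uncertain. Tnfrsf11b, encoding osteoprotegerin, differed by 0.04 by RMA and by -0.35 in the dChip values. In the authors' deposited table all 4 genes were lower with bounds clear of 1, against 36.9% of all named genes and 19 of the 54 members (35.2%). By RMA 2 of the 4 were lower.

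Of the 14 TRAF-binding receptors none reached 1.5-fold, against 4.30% of all named genes in either direction. By any amount 6 were higher and 8 lower. In the dChip values 8 were higher and 6 lower. Tnfrsf18 (GITR), a costimulatory receptor of T cells, differed by 0.38, and by 0.39 in the dChip values. Tnfrsf9, Tnfrsf4 and Tnfrsf8, which also act on activated T cells, differed by 0.37, 0.33 and 0.16 by RMA but by 0.01, 0.06 and 0.05 in the dChip values. All of these lay under the median level on both arrays. Tnfrsf18 and Tnfrsf4 are neighbours on the chromosome. Cd40, the receptor through which T cells activate B cells, macrophages and endothelium, read 8.33 in cKO and 8.62 in wild type. Its difference of -0.29 was -0.26 in the dChip values, and the authors' deposited table gives -1.20 with bounds of -1.16 and -1.24. The lymphotoxin receptor gene Ltbr was equal, at 8.74 on each array, with bounds of 0.99 and 1.04 around 1.02 in the authors' deposited table. Tnfrsf12a (Fn14), an injury-induced receptor for TWEAK, read 9.06 in cKO and 8.95 in wild type, a difference of 0.11. By RMA the receptors for BAFF were not higher together with their ligand. Tnfrsf13c differed by -0.03, Tnfrsf13b by -0.01 and Tnfrsf17 by -0.29. Their dChip differences were -0.05, 0.08 and -0.07. Tnfrsf13b and Tnfrsf17 lay under the median level on both arrays, and the bounds of Tnfrsf17, -0.96 and -1.15, did not clear 1. Tnfrsf11a (RANK), Tnfrsf14 and Tnfrsf19 differed by -0.02, -0.11 and -0.12.

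Across 24 ligand and receptor pairs, both had the same sign in 8 and opposite signs in 16 by RMA. In the dChip values the signs were the same in 13 and opposite in 11. The joined transcript of TWEAK and APRIL was paired with the TWEAK receptor gene Tnfrsf12a alone, and pairs with the receptors of APRIL were not counted. In no pair were both past 1.5-fold in either processing. Tnf and Tnfrsf1b were the pair with both values above 0.5. For TRAIL, ligand and death receptor were apart in opposite directions, at -0.57 for Tnfsf10 and 0.33 for Tnfrsf10b. For FasL, the receptor was lower at -0.67 while Fasl, a gene outside the symbol rule, differed by 0.18 with a dChip difference of -0.18. Pairs share ligands and receptors, so the counts are a description.

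**Figure D3:**
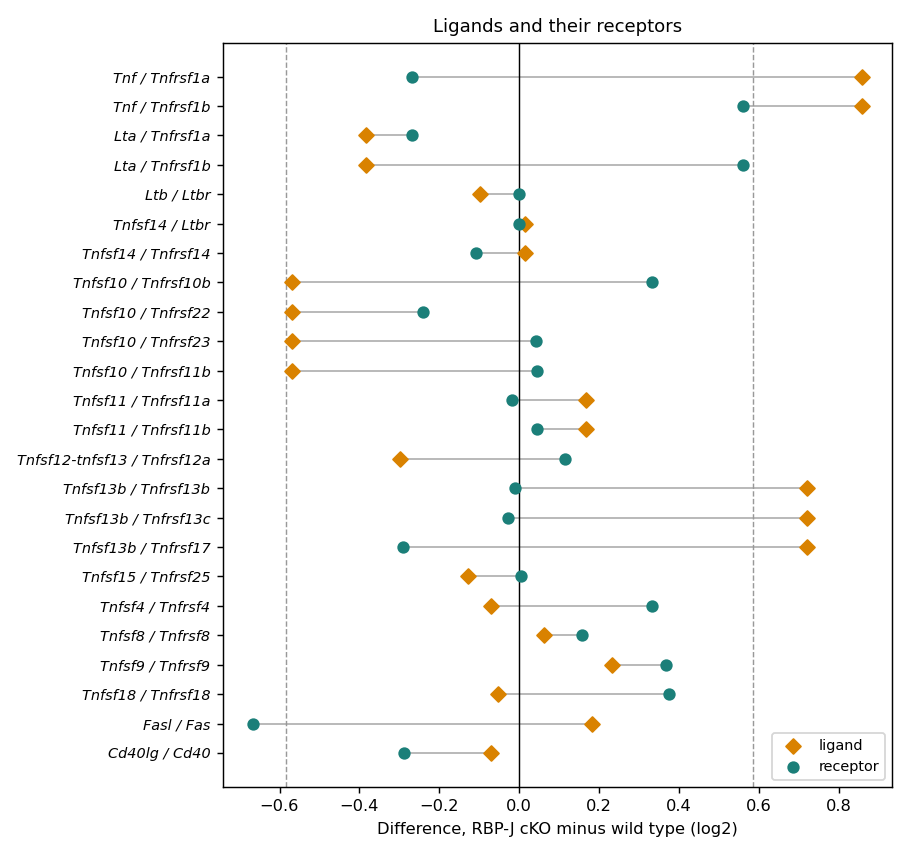
Difference (horizontal axis, cKO minus wild type, log2 RMA) of the ligand (diamond) and the receptor (circle) in each of 24 pairs, joined by a line. Dashed lines mark 1.5-fold. Tnf and Tnfrsf1b lie above 0.5 together, whereas Tnfsf10 and Tnfrsf10b, and Tnfsf13b and its receptors, are drawn apart.

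TRAF adaptors were mostly equal, with Traf1 and Traf4 on the higher side. Traf1, an adaptor without a RING domain that NF-kB itself induces, read 7.42 in cKO and 6.76 in wild type, 1.57-fold higher by RMA. The authors' deposited table gives a fold of 1.34, with bounds of 1.26 and 1.43, and both levels lay under the median of all named genes. Traf4, which is expressed in epithelia, read 9.69 in cKO and 9.30 in wild type. Its difference was 0.39, with 0.38 in the dChip values and bounds of 1.25 and 1.35 around 1.3 in the authors' deposited table. The other five lay between -0.14 and 0.07. Traf6, which serves Toll-like and interleukin-1 receptors as well, differed by 0.07. Traf3, a brake on the alternative NF-kB pathway, differed by -0.0032 and Traf5 by -0.03. Traf2, an adaptor in the signalling of both TNF receptors, differed by -0.08, and Traf7 by -0.14.

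The TRAF-interacting genes went in different directions. Traf3ip2 (Act1), an adaptor of the interleukin-17 receptor, read 7.94 in cKO and 8.21 in wild type and differed by -0.27. Traf3ip1, which encodes a ciliary transport protein, differed by -0.08. Traf3ip3, a lymphocyte gene, differed by 0.36 by RMA and by 0.11 in the dChip values, at levels of 6.02 in cKO and 5.66 in wild type.

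Genes named for their induction by TNF were split, with 5 of 8 higher and 3 lower. Tnfaip3, encoding the ubiquitin-editing enzyme that ends NF-kB signalling, read 9.17 in cKO and 8.40 in wild type. It was 1.70-fold higher, and the authors' deposited table gives a fold of 1.79 with bounds of 1.72 and 1.87. Its levels were above the median of all named genes on both arrays, and 302 named genes had a larger difference. Tnfaip6, encoding a hyaluronan-binding protein of inflammation, differed by 0.30, at 5.78 in cKO and 5.49 in wild type. Tnfaip2, an NF-kB target of endothelium and myeloid cells, read 9.78 in cKO and 10.03 in wild type, and its difference of -0.25 was -0.28 in the dChip values. Tnfaip1, which encodes an adaptor of a cullin ubiquitin ligase, differed by -0.12. Of the lipid-binding Tnfaip8 group, Tnfaip8 differed by 0.03, Tnfaip8l3 by 0.01, Tnfaip8l2 by 0.20 and Tnfaip8l1 by -0.38. In the dChip values Tnfaip8l1 differed by -0.10. The sign of Tnfaip8l2 and Tnfaip8l3 turned in the dChip values. Over the whole family 43 of 54 members (79.6%) had the same sign in both processings, against 81.3% of all named genes, and Lta had the largest RMA difference among the other 11.

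**Figure D4:**
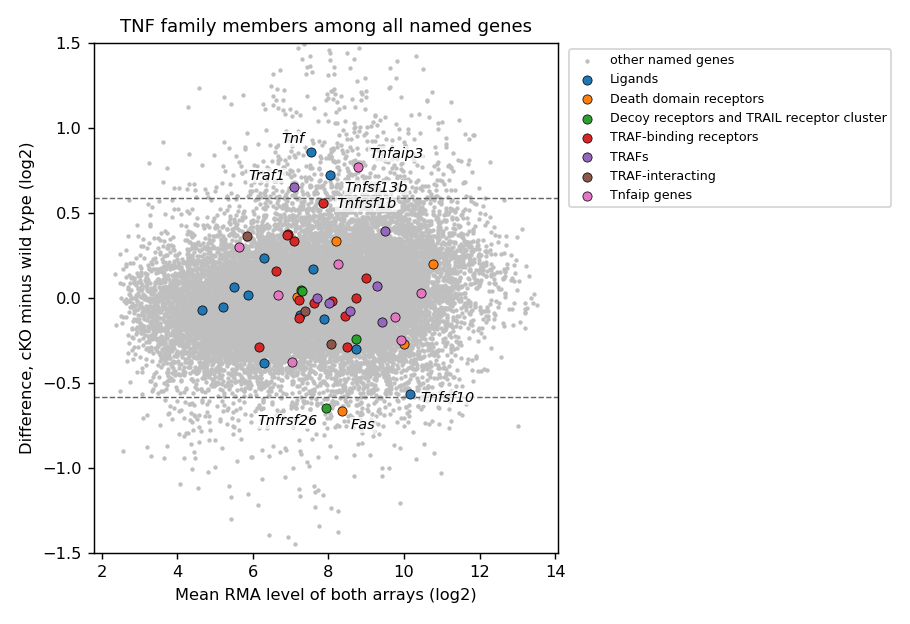
Difference (vertical axis, cKO minus wild type, log2 RMA) against mean level of both arrays (horizontal axis, log2) for all named genes in grey and the 54 members in colour by role. Dashed lines mark 1.5-fold, and 37 other genes lie outside the vertical range. Most members lie inside the grey band, with Tnf, Tnfaip3, Tnfsf13b and Traf1 above the upper line and Fas and Tnfrsf26 below the lower one.

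Downstream genes of the pathway differed by less than 1.5-fold, while some NF-kB target genes were higher. In the list of IKK complex, ubiquitin regulators and NF-kB subunits 18 of 29 genes were higher and 11 lower, with a median of 0.08. None was at 1.5-fold, against 4.30% of all named genes in either direction. The largest differences of the list were Bcl3, an NF-kB cofactor, at 0.49, the subunit gene Rel at 0.42 and the IKK kinase gene Chuk at 0.42. Nfkbiz at 0.41 and Nfkbib at 0.40 followed. Of 11 genes for death domain adaptors, caspase-8 and necroptosis 8 were higher, with a median of 0.10. None was at 1.5-fold, against the same 4.30%. The necroptosis effector gene Mlkl was lowest at -0.47, followed in size by the kinase gene Ripk1 at 0.15 and the ubiquitin ligase gene Birc3 at 0.14. Genes for shedding of TNF and its receptors were equal, from -0.07 for Rhbdf1 and -0.06 for Timp3 to 0.04 for Adam17, the TNF-shedding protease. Superfamily genes outside the symbol rule were lower for 7 of 10 genes (median -0.04) and included Relt at 0.38, Cd27 at -0.19 and Fasl at 0.18. In the dChip values 6 were lower and 4 higher, and 9 of the 10 had a mean level under the median of all named genes.

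Of 14 NF-kB target genes with a probe set 11 were higher and 3 lower by RMA (median 0.32), and 9 higher and 5 lower in the dChip values (median 0.29). At least 1.5-fold higher in both processings were 4 (28.6%), against 2.2% of all named genes, and none was 1.5-fold lower by RMA. The list was chosen with earlier results of these data known, so this share is a description. Cxcl1 turned from 0.53 by RMA to -0.18 in the dChip values, and Sele from 0.03 to -0.20. Il6 read 6.28 in cKO and 4.62 in wild type, both under the median of all named genes. Ccl2, the monocyte chemokine gene, differed by 1.16, Cxcl10 by 0.60 and Ptgs2 by 0.60. The leukocyte adhesion gene Icam1, also an NF-kB target, differed by -0.14, and Nfkbia, an inhibitor gene that NF-kB induces, by 0.03.

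Cell type markers differed between the pools as well. Macrophage and dendritic cell markers had a median difference of 0.80 and were higher in cKO in 15 of 15 cases, and their summed dChip intensity was 8496 in cKO and 4253 in wild type. Injured tubule markers were higher for 8 of 8 genes (median 0.91) and summed to 15679 in cKO and 10592 in wild type. T and NK cell markers were higher for 10 of 10 genes by RMA (median 0.32) and for 8 of 10 in the dChip values (median 0.20), and 9 of the 10 had a mean level under the median of all named genes. They summed to 1972 in cKO and 1737 in wild type. B cell markers were split, 6 of 10 being higher and 4 lower (median 0.03), and summed to 4634 in cKO and 4099 in wild type. Of these 10, 2 were at least 1.5-fold higher in both processings, against 2.2% of all named genes. They were Jchain at 1.00 and Ighm at 0.73 by RMA, and none was 1.5-fold lower. Endothelial markers were lower for 9 of 10 genes (median -0.53) and summed to 22536 in cKO and 30775 in wild type. Podocyte markers were lower for 6 of 6 genes (median -0.39), and summed to 18517 in cKO and 21783 in wild type. Proximal tubule markers were higher for 8 of 8 genes (median 0.30), and those of the thick limb, distal tubule and collecting duct for 6 of 8 (median 0.36). Fibroblast markers were higher for 5 of 7 genes (median 0.21), smooth muscle and renin cell markers lower for 6 of 8 (median -0.10) and neutrophil markers split 4 to 4 (median -0.01). The higher members Tnf, Tnfaip3, Tnfsf13b and Traf1 stood beside several higher lists, and the lower members Fas and Tnfrsf26 beside both the endothelial and the podocyte list. Array intensities have no true zero, so no marker could be called absent, and the part of these cell types in the TNF family values was not tested.

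**Figure D5:**
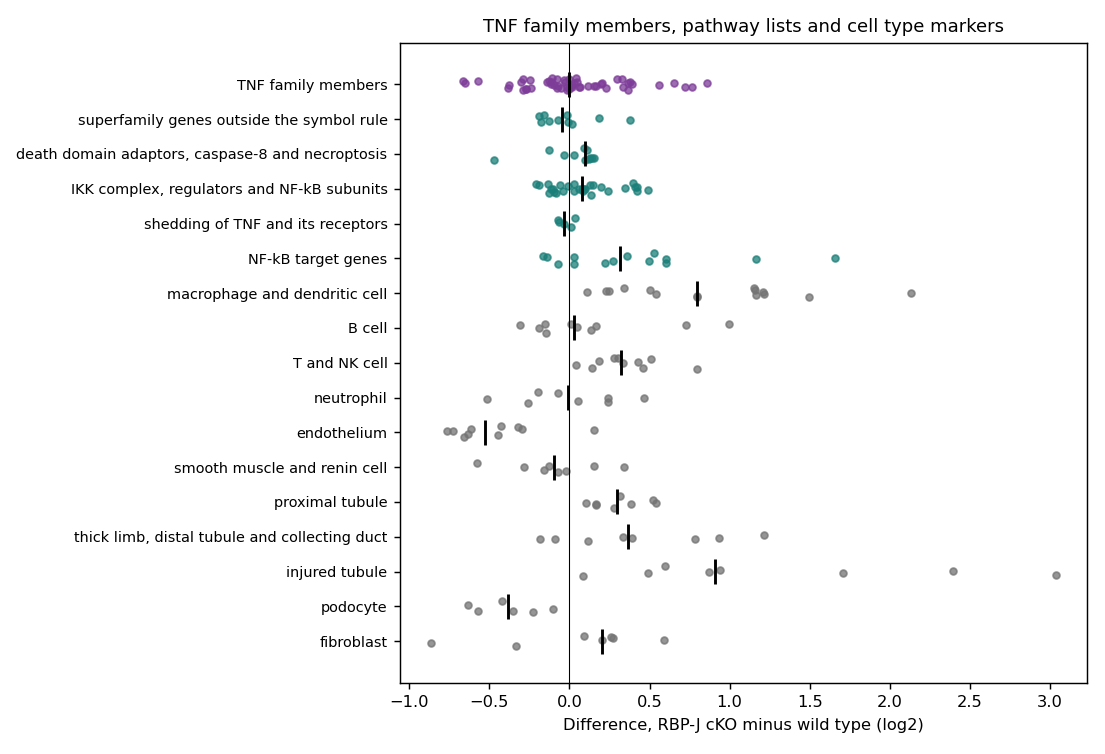
Differences (horizontal axis, cKO minus wild type, log2 RMA) of the 54 members (purple), of genes in 5 pathway lists (green) and of 11 cell type marker lists (grey). Each point is a gene, black bars are list medians, and vertical scatter has no meaning. The members centre on zero, the macrophage list has a median of 0.80 and the endothelial list one of -0.53.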

How the data were processed

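Arteriole RNA of each pool was hybridised to an Affymetrix array with the Ambion WT kits, per the labels' protocols. RMA gave the deposited log2 levels, per the submitters' processing notes, which also list R 2.15.0 and limma 3.12.1. The authors also deposited dChip intensity values on a linear scale with a signed fold score and its bounds, per the file headers. The confidence level of the bounds was not given in the sources used here.

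Members and lists were chosen with earlier results of these data known. Symbols are the text before the colon in the dChip table. Where a symbol had several probe sets, the one with the highest mean level was used, which concerned 1287 genes and none of the members. No filter on low values was set, and a fold was called at 2 and at 1.5. List genes not found by symbol were matched by accession or synonym to a RefSeq table (GRCm38.p6), and 1 NF-kB target of 15 was unmatched. Named are members past 1.5-fold, the principal TNF genes, all Traf genes, the 10 with the highest mean level, the others by role, and 3 genes of each pathway list by size. Ptgs2, Icam1, Nfkbia, Nfkbiz, Nfkbib, Cxcl1 and Sele were added after values were seen. So were the Tnf promoter, the ligand and receptor pairs, and the members drawn by level. Alternatives were floors on mean level at the median and 75th percentile, dChip values, centring on the median or a loess trend, and the mean over probe sets. The counting and centring were tested on simulated data. Python 3.11.15, pandas 2.3.3, NumPy 2.4.6, statsmodels 0.14.6 and matplotlib 3.10.9 were used.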

Additional observations from a re-analysis of the deposited data

How the results depend on the processing

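With 1 array per group, agreement between alternatives does not measure how the animals vary. No paired analysis was possible because each group holds 1 array. No member past 1.5-fold changed direction in the dChip values or after centring on the loess trend. Of the 54 members, 52 kept their side of 1.5-fold in the dChip values. The exceptions were Fas at -0.33 and Traf1 at 0.42. Centring on the loess trend put Tnfsf10 past 1.5-fold, at -0.63, and left the other 53 on their side. Centring on the median subtracted -0.0073 from each difference and changed no member's side. The mean over probe sets could change none, since each member had a single probe set. The count of members at least 1.5-fold higher, 4, became 2 with a floor at the median mean level, which kept 30 members, and 0 with a floor at the 75th percentile, which kept 10. The count of those lower, 2, became 0 with the stricter floor and 1 with the dChip values. At the floor at the median 430 of 11157 named genes were that much higher and 160 lower. At the stricter floor 217 of 5579 were higher and 78 lower, so with 10 members kept a count of 0 lies near those shares. In the dChip values 559 of 22314 named genes were that much lower. Of the 11 members with opposite signs in RMA and dChip, 8 lay under the median level, where low signal limits the precision.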
